A study of Danio rerio with 23 samples.

Results

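The intestines of continuously fed adult zebrafish from 2 tanks were compared with each other. Both tanks received the same food, so the comparison addresses which gut transcripts varied with the tank in which siblings were kept. Of the 23 libraries of the series, the 11 labelled as continuously fed were used here, 5 from fed tank 1 and 6 from fed tank 2, and the time point was taken as a covariate. The other 12 libraries came from a pair of starved tanks, 5 from starved tank 1 and 7 from starved tank 2, and served as a second pair of tanks with a shared diet.

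The fish were untreated siblings from a single breeding pair, moved at random into 4 clean tanks before the experiment, and each library was made from the whole intestine of 1 fish collected before the first meal of the day. The time points were 3 days of starvation (3dpS), 21 days of starvation (21dpS) and 3 days of refeeding of the starved fish (3dpR), so the fed tanks ate throughout and the starved tanks held refed fish at 3dpR. Fed tank 1 gave 1 fish at 3dpS, 2 at 21dpS and 2 at 3dpR, and fed tank 2 gave 2 at each. Starved tank 1 gave 2, 1 and 2 fish, and starved tank 2 gave 2, 3 and 2. The labels give the age of 81 days post-fertilization (dpf) for every library, whatever its time point. By the paper's methods the fish shared a day of birth, so this age cannot hold at every time point. Each diet had only 1 tank 1 and 1 tank 2. The p-values below therefore measure the spread between fish and not between tanks, and the tank cannot be told apart from anything else that differed between the fish or libraries of the 2 tanks.

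Fish that share a tank share water, the microbes in it and the course of each meal. By the paper's methods all fish stayed on a recirculating aquaculture system throughout, so different tanks can also share system water. The intestine is in contact with that environment through a single layer of cells, of which absorptive enterocytes take up lipid, sugar and amino acids, lysosome-rich enterocytes take up whole protein, goblet cells make mucus and enteroendocrine cells make hormones. Complement proteins and other innate immune genes are made by the liver and by the gut lining, and ribosomal protein genes follow the rate at which cells grow.

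Between 515792 and 712850 reads were counted on genes in the fed libraries (median 596487), and 11050 to 12632 genes had a read. At this depth a floor of 3 counts, the least taken as detectable, equals 4.208 to 5.816 CPM (read counts scaled to the same total in every library), and this floor covers counting error only. The 10 most abundant genes took 26.33 to 43.98% of the reads of a library. Fed tank 2 libraries held fewer reads by a log2 difference of -0.09 within time points (p = 0.157, two-sided exact permutation test, 108 arrangements), which became -0.13 (p = 0.037, two-sided exact permutation test) without fish 2 of fed tank 2 at 3dpR. The tissue carried its markers, as 24 of 25 enterocyte genes were detected in each fed tank with summed levels of 6682 to 8160 CPM in fed tank 1 and 5421 to 7496 CPM in fed tank 2, whereas none of 14 enteroendocrine genes had enough reads to be tested.

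A value here is the number of reads counted under an identifier. The strand option of the counting is not given in the sources used here. MT-ND6, which lies on the opposite strand from most mitochondrial genes, had 172411 reads over the fed libraries against 39863 for MT-CO1, the next of the 13 mitochondrial genes. Apolipoprotein gene apoa1a had 1431 reads and rnf214, which overlaps it, had 328377. Whether reads were counted on the strand of the gene named was not tested, and this doubt bears on every value below. Where genes overlap, reads of a gene and of its partner cannot be told apart.

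The 2 fed tanks differed in 50 of 4362 genes tested (1.15% called at an adjusted p under 0.05, edgeR quasi-likelihood test). Of these, 33 were higher in fed tank 2 (0.757% of the genes tested), by log2 differences of 0.58 to 2.81, and 17 were lower (0.39%), by 0.82 to 2.38 on the log2 scale. The higher genes included the complement gene cfb, the immune gene btr33, and COPS4 and CUL1, regulators of protein turnover. The lower genes included the galectin lgals2b, the transporters SLC43A2 and SLC13A2 and 3 ribosomal protein genes. Among the starved libraries, fish 2 of starved tank 1 at 3dpS had 1236436 counted reads, and the others had 500205 to 699321. Each of the 50 genes had an even count in that library. Its total was even too, and no odd count was found among the other genes named from the tests and lists. MT-ND6 had 30274 reads there and MT-CO1 had 9692. Whether its reads were counted 2 times was not tested. The library was kept as counted, and it enters every starved value and every difference between diets below. The 2 starved tanks, tested in the same way, differed in 0 of 4023 genes (0%), with 167 genes (4.15%) at an unadjusted p under 0.05 and 3 genes called by DESeq2, against 772 genes (17.7%) and 193 by DESeq2 for the fed tanks.

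The size of the differences followed the same order. The median absolute log2 difference over the genes tested was 0.34 between the fed tanks and 0.21 between the starved tanks, and 291 and 75 genes passed a difference of 1 in size. Over the 500 most variable genes, 21.3% of the variance within time points lay between the fed tanks (p = 0.0463, exact permutation test, 5 of 108 arrangements reaching it) and 11.3% between the starved tanks (p = 0.403, exact permutation test, 58 of 144). Without fish 1 of starved tank 1 at 3dpS the starved share was 17.6% (p = 0.111, exact permutation test), and with any other starved library left out it was 9.80 to 15.4%. With 1 fed library left out the share was 19.6 to 31.5%, with p-values of 0.037 to 0.13 (exact permutation test), and it was under 0.05 only without fish 2 of fed tank 1 at 3dpR. These reduced designs allow fewer arrangements.

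**Figure D1:**
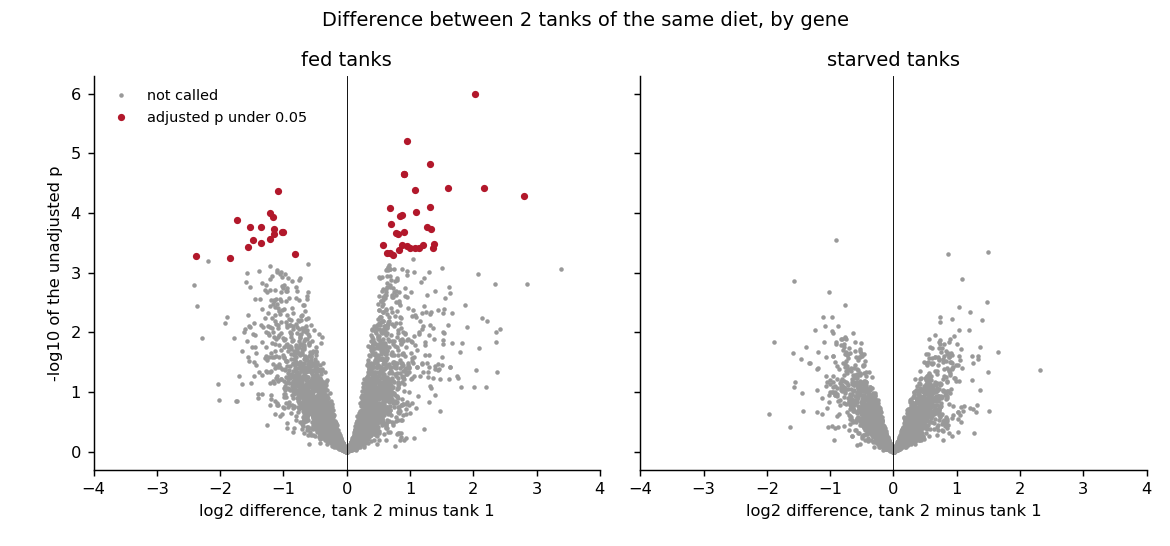
Each point is a gene, with the log2 difference (tank 2 minus tank 1) on the horizontal axis and -log10 of its unadjusted p-value on the vertical axis, for the fed tanks (left, 4362 genes) and the starved tanks (right, 4023 genes). The 50 genes called between the fed tanks are red, and no gene was called between the starved tanks.

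The number of called genes depended on single fish. It was 201 without the only fed tank 1 fish at 3dpS and 115 without fish 2 of fed tank 1 at 3dpR. It was 21 without fish 2 of fed tank 2 at 3dpS, 15 without fish 1 of fed tank 1 at 21dpS, 22 and 10 without fish 1 and fish 3 of fed tank 2 at 21dpS, and 16 without fish 3 of fed tank 2 at 3dpR. It was 1 without fish 3 of fed tank 1 at 21dpS, without fish 3 of fed tank 1 at 3dpR, or without fish 2 of fed tank 2 at 3dpR, and that gene was ENSDARG00000087005 each time. Of the 50 genes, 1 was called in all 11 of these fits and 10 in at least 7 of them. Of the 50 genes 49 had the same sign at all 3 time points, as had 34.3% of all genes tested, and in 43 all fed tank 2 fish lay on the same side of the fed tank 1 fish within every time point (7.89% of all genes). The 50 were called on these same libraries for a difference shared by the time points, so these counts are a description, and at 3dpS fed tank 1 is a single fish. The CPM of the tanks did not overlap for 25 of the 50 genes, 14 higher and 11 lower, while 2.87% of all tested genes did not overlap (1.67% higher and 1.19% lower). Between the starved tanks 0.0746% did not.

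ENSDARG00000087005, an identifier for which no symbol was found, had the smallest p-value. In fed tank 1 it was at 26.8 CPM at 3dpS, 12.1 and 8.4 CPM at 21dpS and 17.6 and 34.1 CPM at 3dpR, and in fed tank 2 it ran from 41.1 to 135 CPM with a median of 76.8 CPM. All 6 fed tank 2 fish were above all 5 fed tank 1 fish, by a log2 difference of 2.03 ± 0.28 (SE, adjusted p = 0.00449, edgeR).

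Among immune genes, cfb encodes complement factor B, the protease component of the alternative complement pathway, and overlaps si:dkeyp-50d11.2 and slc29a2. It was at 18.4, 9.1, 1.68, 14.7 and 4.65 CPM in the fed tank 1 fish (3dpS, then 21dpS, then 3dpR) and at 13.1 to 95.7 CPM in fed tank 2 (median 47.6). It rose by 2.17 ± 0.40 (log2, SE) in fed tank 2, with adjusted p = 0.0206 (edgeR), although the tanks overlapped when time points were mixed. Its lowest level, in fish 3 of fed tank 1 at 21dpS, rests on 1 read, under the floor. Other members of the list of complement and acute phase genes did not pass the test, with c4 at 0.75 ± 0.19 (adjusted p = 0.0591, edgeR) and c3a.1 at 2.35 ± 0.54 (adjusted p = 0.0671, edgeR). In all 9 of 29 listed genes had enough reads, 7 were above 0, 1 was called and the median log2 difference was 0.75, beside a median of -0.03 over all genes tested, of which 2075 were above 0 and 2287 below. The median of these complement genes between the starved tanks was 0.69 over 13 genes, with none called. Taken by time point, the fed tank median was 1.73 at 3dpR and 1.68 at 21dpS but 0.29 at 3dpS, and it was 1.48 over 11 genes as the mean of the differences within time points and 1.59 over 7 genes without the time point covariate.

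The gene btr33 belongs to the bloodthirsty-related family of TRIM proteins, many of which act in antiviral defence in fish. Fed tank 1 fish had 456 CPM at 3dpS, 197 and 188 CPM at 21dpS and 440 and 370 CPM at 3dpR, and fed tank 2 fish had 360 to 732 CPM (median 633). The levels overlapped over all fish, and within time points the difference was 0.84 ± 0.17 (log2, SE, adjusted p = 0.0299, edgeR). In other immune lists no gene passed the test, with 0 of 16 tested interferon-stimulated genes (median 0.19), 0 of 13 antigen presentation genes (median 0.06) and 0 of 5 mucosal inflammation genes (median 0.04).

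Liver markers, which a dissected intestine can carry along, ran in the same direction as complement. Of 20 such genes, all were detected and 10 were tested, 9 of these were above 0 with a median log2 difference of 1.35, 5 were at an unadjusted p under 0.05 and none was called. Between the starved tanks 12 of 12 tested liver genes were above 0, with a median of 0.63 and none called. The summed level of the liver list in the fed tanks was 214.6 to 643 CPM (tank 1) and 439.8 to 1643 CPM (tank 2), so the ranges overlapped. The complement list summed to 352.8 to 601.5 CPM and 558.2 to 1192 CPM in the same fish. In these bulk libraries fewer cells of a type and less RNA per cell cannot be told apart, and the part of liver tissue in the difference in cfb was not tested.

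COPS4 is a subunit of the COP9 signalosome, which removes NEDD8 from cullins, and CUL1 is the cullin scaffold of the SCF ubiquitin ligases. COPS4 was at 270, 407, 171, 256 and 208 CPM in the fed tank 1 fish and between 483 and 796 CPM in fed tank 2 (median 669), with no overlap and a log2 difference of 1.31 ± 0.22 (SE, adjusted p = 0.0197, edgeR). CUL1 was at 377, 337, 333, 509 and 341 CPM against 463 to 1412 CPM (median 791), a difference of 1.09 ± 0.22 in log2 (adjusted p = 0.0299, edgeR). Both rose in fed tank 2, CUL1 with 1 fed tank 1 fish, fish 2 at 3dpR, above the lowest fed tank 2 fish.

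DRC1, part of the dynein regulatory complex of motile cilia, overlaps paplnb. It was at 8.38, 0, 1.68, 7.33 and 1.55 CPM in fed tank 1 and at 3.76 to 45.9 CPM in fed tank 2 (median 30.4). Its log2 difference of 2.81 ± 0.53 (SE, adjusted p = 0.0226, edgeR) was the largest of the 50, but it rests on 108 reads in all, and 3 of the 5 fed tank 1 fish were under the floor. ARPIN, an inhibitor of the Arp2/3 complex that nucleates actin, overlaps anpeplb and was at 28.5 to 65.1 CPM in fed tank 1 and at 93.9 to 151 CPM in fed tank 2, and FMNL1, a formin that elongates actin filaments, at 21.7 to 63.7 and 73.4 to 192 CPM. The tanks overlapped for neither of these actin regulators, whose log2 differences were 1.31 and 1.27.

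aox5, an aldehyde oxidase gene that overlaps bzw1a among others, was at 741, 372, 435, 594 and 533 CPM in fed tank 1 and at 830 to 1303 CPM in fed tank 2 (median 992), with no overlap and a log2 difference of 0.90 ± 0.16 (SE, adjusted p = 0.0197, edgeR). SLC46A3, a transporter of the lysosomal membrane, also rose without overlap, from 190 to 312 CPM in fed tank 1 to 432 to 777 CPM in fed tank 2 (log2 difference 1.08 ± 0.20). SLC43A2, a carrier of large neutral amino acids, fell by 1.53 on the log2 scale, from 38.6, 19.7, 48.7, 26.4 and 27.9 CPM to between 7.59 and 16.0 CPM. SLC13A2, which brings citrate and succinate into epithelial cells together with sodium, fell by 1.15, from 560, 554, 810, 462 and 685 CPM to between 141 and 456 CPM. The tanks did not overlap for either carrier.

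Other lower genes were lgals2b, a galectin, dachc, a transcriptional regulator of the dachshund family, and ATP5PB, a subunit of the mitochondrial ATP synthase. lgals2b was at 330, 287, 432, 164 and 313 CPM in fed tank 1 and at 121 to 186 CPM in fed tank 2 (log2 difference -1.09 ± 0.20, adjusted p = 0.0206, edgeR), the tanks overlapping through fish 2 of fed tank 1 at 3dpR. dachc was at 23.5, 25.8, 25.2, 14.7 and 23.2 CPM against 4.79 to 9.99 CPM, and ATP5PB at 50.3 to 85.2 CPM against 18.8 to 35.7 CPM. Both fell without overlap, by 1.73 and 1.21 on the log2 scale.

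**Figure D2:**
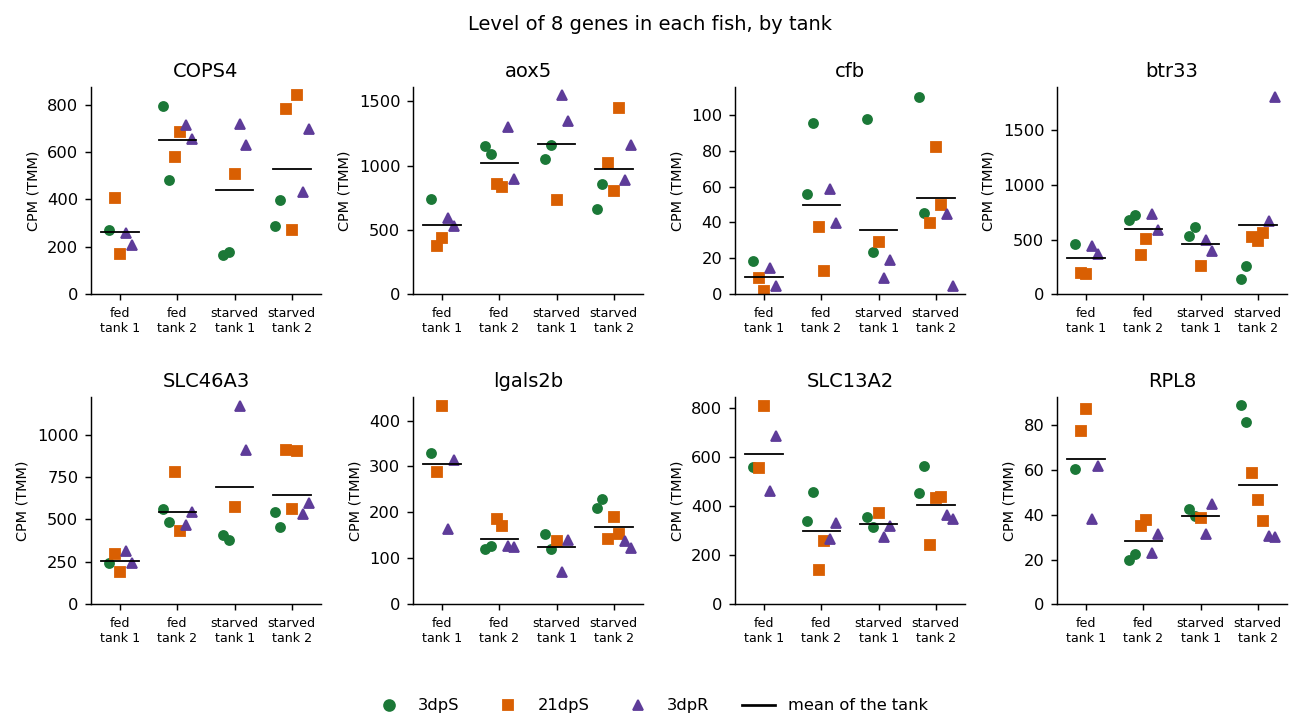
TMM-scaled CPM of 8 genes in every fish of the fed and starved tanks, with symbols for the time point and a line at the mean of each tank (3dpR fish of the starved tanks were refed). COPS4, aox5, SLC46A3, SLC13A2 and RPL8 did not overlap between the fed tanks, while cfb, btr33 and lgals2b did, and the starved tanks overlapped for all 8.

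Other genes with low p-values were ccdc83 (1.59), TEX9 (0.70), FUOM (0.69, fucose mutarotase), si:dkey-197c15.6 (0.96), si:ch73-226l13.2 (0.90), ENSDARG00000106179 (0.87) and si:dkey-28n18.12 (-1.36), each with its log2 difference. TEX9, named for its expression in testis, did not overlap, at 2059 to 2508 CPM in fed tank 1 and 3283 to 4740 CPM in fed tank 2. The testis list itself had 1 of 15 genes with enough reads, and that gene was not called.

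**Figure D3:**
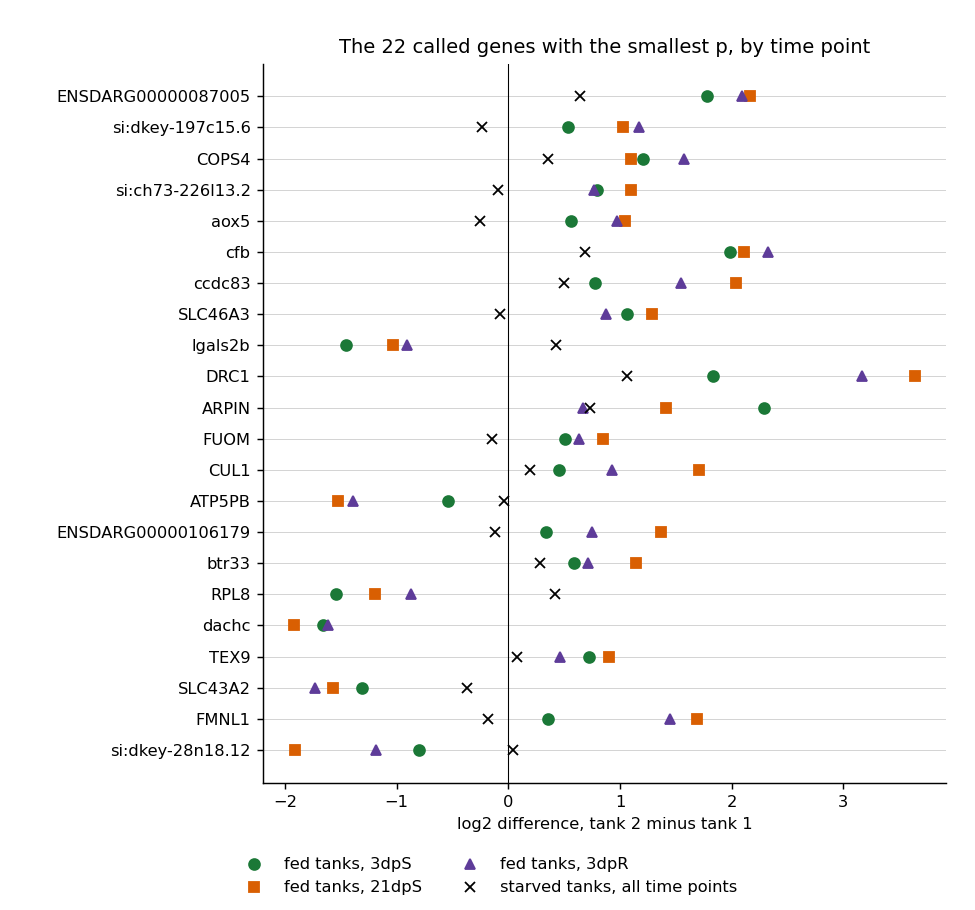
Log2 difference between the fed tanks (tank 2 minus tank 1, horizontal axis) at each time point for the 22 called genes with the lowest p-values, 1 gene per line and 1 symbol per time point. All 22 lie on the same side of 0 at 3dpS, 21dpS and 3dpR. The 3dpR difference is the farthest from 0 for si:dkey-197c15.6, COPS4, cfb and SLC43A2, and the 3dpS difference for lgals2b, ARPIN and RPL8. For the other genes, among them CUL1 and FMNL1, the 21dpS difference is the farthest from 0.

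Cytosolic ribosomal protein genes were the list with the most members on 1 side by count, and also the list with the most genes tested. By share, some smaller lists lay wholly on 1 side, such as the 4 tested smooth muscle genes, all below 0. RPL8, rpl7a and RPL21 were called, all lower in fed tank 2 (3 of 63 tested members of 77, beside 1.15% of all genes). Of the 63, 60 had a log2 difference below 0 and 3 above, 27 were lower and 1 higher at an unadjusted p under 0.05 (8.02 and 9.67% of all genes tested), and the median was -0.53. RPL8 was at 60.3, 77.4, 87.4, 38.1 and 62.0 CPM in fed tank 1 and at 19.98 to 37.6 CPM in fed tank 2, which did not overlap (log2 difference -1.17 ± 0.24, adjusted p = 0.0299, edgeR). rpl7a was at 186, 185, 316, 126 and 229 CPM against 67.1 to 135 CPM (-1.02 ± 0.22, adjusted p = 0.0332, edgeR), where fish 2 of fed tank 1 at 3dpR overlapped fed tank 2. RPL21 fell by 0.82 ± 0.19 (log2, SE, adjusted p = 0.0447, edgeR).

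The summed level of the ribosomal list was 3775 to 7063 CPM in fed tank 1 (median 5856) and 2863 to 4605 CPM in fed tank 2 (median 3478). Leaving out 1 fed library at a time gave medians of -0.67 to -0.47, and the median was -0.96 at 3dpS and -0.45 at 21dpS. Between the starved tanks the list ran the other way, with 64 of 67 tested genes above 0, a median of 0.35 and none called. Ribosomal protein genes have many pseudogene and paralogue copies, so the counts of single members are uncertain.

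**Figure D4:**
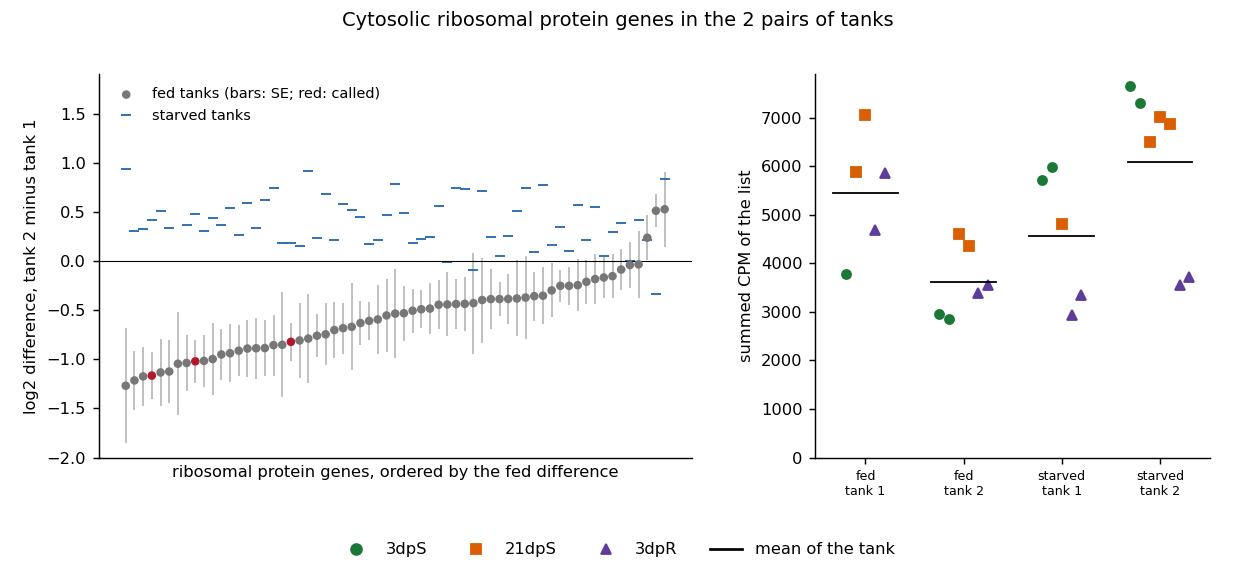
Left, log2 difference (tank 2 minus tank 1) of each tested cytosolic ribosomal protein gene between the fed tanks and between the starved tanks, ordered by the fed value; right, summed CPM of the 77 genes in every fish by tank and time point. In the fed tanks 60 of 63 genes lie below 0 and in the starved tanks 64 of 67 lie above 0.

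Among the gut cell types, absorptive enterocytes showed no called gene (21 tested, 8 above 0 and 13 below, median -0.13), with VIL1 at -0.44, and the lowest adjusted p at chia.2 (-0.61, adjusted p = 0.0583, edgeR). Lysosome-rich enterocytes (15 tested, median -0.24), goblet cells (3 tested, median -0.41) and leukocytes (5 tested, median 0.24) had none either. Genes of lipid uptake and lipoproteins (25 tested, median -0.11) and of glycolysis (12 tested, median -0.22) were likewise not called. The diet markers used in the study, ELOVL2, a fatty acid elongase, and tmprss15, which encodes enteropeptidase, had log2 differences of -0.03 ± 0.26 and 0.14 ± 0.63 between the fed tanks (adjusted p = 0.964 and 0.933, edgeR).

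Exocrine pancreas genes, which come from tissue attached to the gut, were lower in the fitted values, with 11 of 12 tested genes below 0, a median of -1.18 and none called. This list turned on 1 fish. The only fed tank 1 fish at 3dpS had a summed level of 6205 CPM, where the other fed tank 1 fish had 895 to 1760 CPM and fed tank 2 fish 727.4 to 2226 CPM, and without it the median was -0.38. Erythrocyte genes summed to 26490 CPM in the same fish. They summed to 2729 to 10050 CPM in the other fed tank 1 fish and to 1002 to 6165 CPM in fed tank 2. Nearly all of this sum was alas2, an enzyme of haem synthesis and the only 1 of the 9 listed genes with enough reads. The sum thus describes 1 gene, which had a difference of -1.65 (adjusted p = 0.325, edgeR). With the pancreas sum as a covariate 46 genes were called between the fed tanks. Of the 50 genes of the main test, 23 were still called and 27 were not, and all 50 kept their sign. The ribosomal median in this fit was -0.45, with none of the ribosomal genes called.

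Overlapping genes stood among the called genes. Of the 33 higher genes, 23 could be matched by symbol to a RefSeq gene, and 15 of these overlapped another gene. Of the 17 lower genes, 13 were matched and 2 of these overlapped another. Of all genes tested 3070 were matched, and 34.04% of these overlapped another. Genes without a match leave these shares uncertain. The called identifier si:dkey-197c15.6 overlaps ptprh, a receptor tyrosine phosphatase gene, and had 32562 fed reads where ptprh had 492. ptprh took 1.664 to 2.691% of the reads of the pair in fed tank 1 and 0.9852 to 1.586% in fed tank 2, so that the shares did not overlap, although the counting intervals of fish of the different tanks did. In starved tanks 1 and 2 this share was 1.106 to 3.394% and 0.8062 to 2.358%. The reads under si:dkey-197c15.6 rose in fed tank 2 (log2 difference 0.96, adjusted p = 0.0138, edgeR), whereas those under ptprh had a difference of 0.29 ± 0.23 (adjusted p = 0.528, edgeR). The pair was looked at because 1 of its genes had been called, and in 6 other pairs chosen in this way the tanks overlapped, among them FUOM with si:ch211-217g15.3, ARPIN with anpeplb and ATP5PB with eps8l3b.

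The same was looked for in 61 overlapping pairs with neither gene called and at least 10 times more reads on 1 gene. The less-counted gene had the lower fed difference in 46 of them, with a median difference of -0.37 between the genes of a pair, and in 20 of 55 such pairs in the starved tanks, with a median of 0.11. The mean log2 ratio of the less-counted to the more-counted gene was -4.64 in the fed tank 1 fish at 3dpS, -4.54 and -4.60 at 21dpS and -4.47 and -4.67 at 3dpR. It was between -4.99 and -4.70 in fed tank 2, so the tanks did not overlap, and the starved tanks overlapped. With this ratio as a covariate, which itself separates the tanks, 2 genes were called, zgc:153284 and si:ch211-247i17.6, neither of them among the 50. All 50 kept their sign, with the ribosomal median at -0.89, the complement median at 0.52 and the liver median at 1.19.

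**Figure D5:**
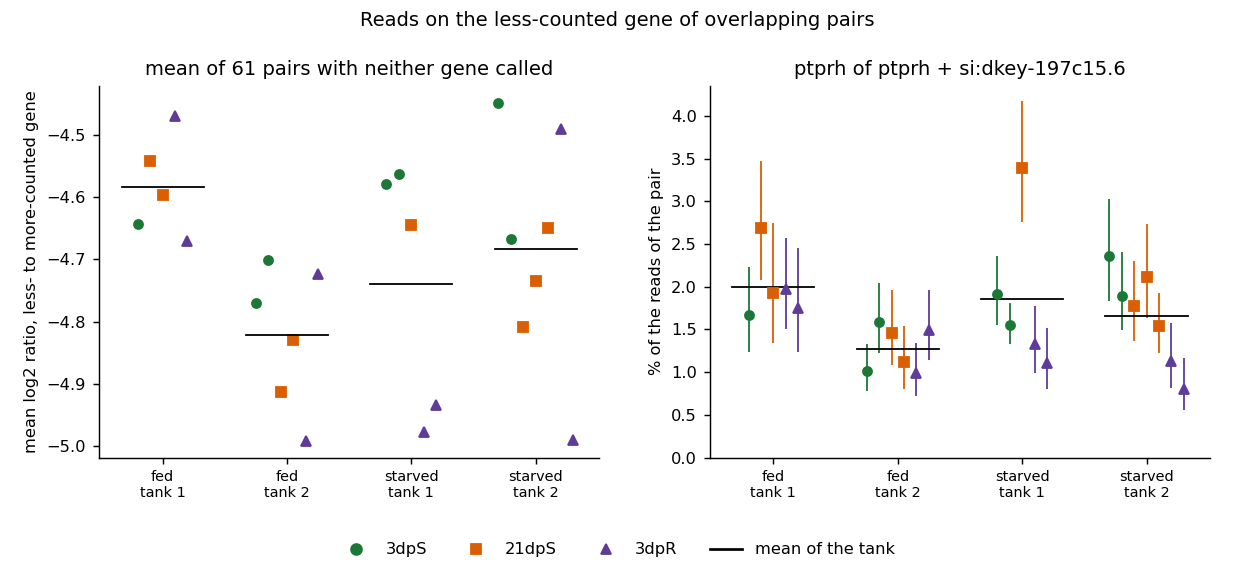
Left, mean log2 ratio of the less-counted to the more-counted gene over 61 overlapping pairs with neither gene called, in every fish by tank; right, percentage of the reads of ptprh and si:dkey-197c15.6 together that were counted on ptprh, with 95% Wilson intervals (counting error only) as vertical bars. The fed tanks do not overlap in either panel, and the starved tanks do.

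Within single time points, 41 genes were called at 3dpS (0.791% of those tested), 5 of them higher (0.0965%) and 36 lower (0.695%) in fed tank 2, 115 at 21dpS (2.22%), 80 higher (1.54%) and 35 lower (0.675%), and 25 at 3dpR (0.482%), 19 higher (0.367%) and 6 lower (0.116%). The 3dpS comparison rests on 1 fed tank 1 fish, whose spread is assumed to be that of the others. At 3dpS 11 of the genes were of the exocrine pancreas list, led by CEL, a pancreatic lipase, at 508 CPM in that fish against 30 and 36.7 CPM (log2 difference -3.96, adjusted p = 9.09e-05, edgeR). Of the 50 genes called over all time points, 1, 25 and 5 were also called at 3dpS, 21dpS and 3dpR. Without the 21dpS libraries 0 genes were called over the remaining time points, without the 3dpR libraries 3 and without the 3dpS libraries 117.

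At 21dpS HSD3B7, an enzyme of bile acid synthesis, was among the genes with the smallest p-values. It was at 381 and 454 CPM in fed tank 1 and 72.4 and 84.5 CPM in fed tank 2 at 21dpS, and at 469 and 358 CPM against 106 and 127 CPM at 3dpR. At 3dpS it was at 235 CPM in fed tank 1 against 324 and 287 CPM. The tank difference therefore ran from 0.34 at 3dpS to -2.43 at 21dpS and -1.81 at 3dpR on the log2 scale, and over all time points it missed the threshold (-1.59 ± 0.38, adjusted p = 0.0649, edgeR).

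For 57 of 5182 genes (1.1%) the tank difference itself varied with the time point (edgeR, tank by time interaction). The 3 with the smallest p-values were nfil3-6, a bZIP repressor of the clock and immune cells, ptges3l, a relative of the p23 co-chaperone, and ZBTB16, a zinc finger regulator induced by glucocorticoids (adjusted p = 0.000494 for each, edgeR). nfil3-6 was at 38.6 CPM in the fed tank 1 fish at 3dpS and at 1.43 and 0 CPM in fed tank 2, whereas at 3dpR it was at 0 and 1.55 CPM in fed tank 1 and at 13.3 and 37.5 CPM in fed tank 2. ZBTB16 had the opposite order, at 1.68 CPM against 35.7 and 39.9 CPM at 3dpS, at 37.9 and 42 CPM against 0 and 3.76 CPM at 21dpS and at 35.2 and 31 CPM against 1.9 and 0 CPM at 3dpR. The tank with the higher level thus changed between 3dpS and the later time points for both genes, where the 3dpS level of fed tank 1 is that of 1 fish. In both genes the lower of the tank levels given here rests on 0 to 2 reads per fish, under the floor of 3 counts.

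FKBP5, a glucocorticoid-induced co-chaperone, had the same adjusted p as these. It was at 476 CPM in fed tank 1 and 67.1 and 35.1 CPM in fed tank 2 at 3dpS, at 435 and 223 CPM against 174 and 280 CPM at 21dpS, and at 125 and 110 CPM against 286 and 311 CPM at 3dpR. Of the circadian clock list, 3 genes were called in this test, among them nr1d2a, a clock repressor (adjusted p = 0.00465, edgeR), at 45.3 CPM against 1.43 and 1.6 CPM at 3dpS and at 5.86 and 6.2 CPM against 24.7 and 29.2 CPM at 3dpR. The fed tank 2 levels of nr1d2a at 3dpS rest on 1 read per fish, under the floor. ciarta, another clock repressor, ran from -1.69 at 3dpS to 2.25 at 3dpR on the log2 scale (adjusted p = 0.0363, edgeR). Over all time points no gene of the clock list was called (9 tested, median 0.12). The hour at which each fish was taken is not given in the sources used here, and its part in these differences was not tested.

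The starved tanks were set beside the fed tanks for the 50 genes, their levels having been scaled in a separate fit. Of the 50, 47 had enough reads there, and 17 had the same sign as in the fed tanks. An unadjusted p under 0.05 (edgeR) was reached by 6, beside 4.15% of all genes tested between the starved tanks. Among these 6, ARPIN and FBXW5 had the same sign as in the fed tanks, and rpl7a, kctd17, MGME1 and stom had the opposite sign. The 33 genes that were higher in fed tank 2 had starved differences of -0.60 to 1.06 with a median of -0.08, and the 14 tested genes that were lower had differences of -1.21 to 0.48 with a median of 0.21. Tank numbers were not shared between the diets, so no sign was given by the design. RPL8, which fell in fed tank 2, had a starved difference of 0.42 ± 0.26, rpl7a of 0.48 ± 0.20, SLC13A2 of 0.31 ± 0.19 and lgals2b of 0.43 ± 0.21, none of them called. cfb was at 0.69 ± 0.51 and ENSDARG00000087005 at 0.64 ± 0.63, on the same side as in the fed tanks.

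When the difference between the tank differences of the 2 diets was tested directly on all 23 libraries, 0 of 5015 genes (0%) were called by edgeR, with 669 genes (13.3%) at an unadjusted p under 0.05 and 105 called by DESeq2. The smallest adjusted p was 0.0508, reached among others by RPL8 (fed minus starved difference -1.57 ± 0.35), rpl7a (-1.48 ± 0.29), lgals2b (-1.51 ± 0.29) and SLC13A2 (-1.45 ± 0.31). Without a filter on low counts edgeR called 60 genes in this test, and 34 among genes with at least 10 counts in every library.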

How the data were processed

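RNA of single zebrafish intestines was prepared with the Ribozero Gold kit and sequenced as single-end reads. The authors deposited raw counts per Ensembl gene for each library. Per the labels' processing notes the tools were CASAVA 1.8, Trim Galore, STAR and HTSeq, with DESeq2 and R for later steps, and the paper's methods name the zebrafish build GRCz10. The annotation release and the strand option are not given in the sources used here.

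The analysis used R 4.3.3, edgeR 4.0.16 and limma 3.58.1. Genes were kept by filterByExpr, libraries scaled by TMM factors, and tank tested with time point as a covariate by the robust quasi-likelihood test, two-sided, with Benjamini-Hochberg adjustment over all genes tested. A gene was called at an adjusted p under 0.05. The fed tanks were fitted on 11 libraries and the starved tanks on 12, the tank differences within time points and their interaction on the 11 fed libraries, and the difference between diets on all 23. Log2 differences are tank 2 minus tank 1. CPM values are TMM-scaled, and list sums are plain CPM. The share of variance used log2 CPM with a prior count of 2, and its permutations exchanged libraries within time points. The scripts were tested on simulated data. No 2 libraries of a tank and time point were duplicates, as their counts differed by a chi-square of 4.858 to 16.61 per degree of freedom in 12 pairs. This check cannot show whether reads were counted 2 times within 1 library.

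The members of the comparison and the 27 gene lists (15 pathway and 12 cell type lists) were chosen with earlier results of these data known. Lists are described by counts and medians. The genes named were drawn from the 25 called genes of lowest p-value, up to 3 from each other test, list members that were called and up to 4 of the most abundant members of each list, and ELOVL2 and tmprss15. Other genes, among them the partners of overlapping genes, nr1d2a, ciarta and the mitochondrial and apolipoprotein genes, had been picked with their values known. The gene name table held symbols for 26803 of 34326 identifiers. Which genes overlap was read from RefSeq on another build, GRCz12tu, so no coordinates are given. Some named items are not reported here.

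The alternatives were DESeq2 1.42.0, RLE factors, no filter, a minimum of 10 counts per library, the 100 most abundant genes left out, no time point covariate, a replicate block, all 23 libraries in 1 fit, the mean of the differences within time points, a log2 difference over 1 in size, the pancreas sum as a covariate, and omission of each time point and each library. The ratio of overlapping pairs as a covariate and the omission of 2 libraries together were chosen after seeing the data.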

Additional observations from a re-analysis of the deposited data

Results flagged for a closer look

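In 82 groups of 4 to 10 fish (a named gene or a list in a tank), 5 had 1 fish far from the others, where chance marks about 1 in 20. CUL1 was at 509 CPM in fish 2 of fed tank 1 at 3dpR and at 333 to 377 CPM in the other 4 fish of that tank. In the same fish dachc was at 14.7 CPM, against 23.2 to 25.8 CPM in the others. FMNL1 was at 21.7 CPM in fish 3 of fed tank 1 at 3dpR and at 51.6 to 63.7 CPM in the others. The exocrine pancreas list summed to 6200 CPM in the fed tank 1 fish at 3dpS and to 895 to 1760 CPM in the others, and the yolk and ovary list summed to 712 CPM in fish 3 of fed tank 1 at 21dpS and to 18.2 to 129 CPM in the others.

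The difference between the fed tanks varied with the time point in 57 genes by edgeR's interaction test, led by nfil3-6, ptges3l and ZBTB16 with an adjusted p of 0.000494 each. ptges3l was at 191 CPM in fed tank 1 and 42.8 and 59 CPM in fed tank 2 at 3dpS, and at 44 and 69.7 CPM against 235 and 338 CPM at 3dpR.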

How the results depend on the processing

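Between the fed tanks 50 genes were called, and 1 to 201 with 1 library left out. DESeq2 called 193, no filter on low counts 220, the mean of the within-time-point differences 200 and at least 10 counts in every library 62, with 51 for RLE factors. Omission of the 3dpS, 21dpS or 3dpR libraries gave 117, 0 and 3, a log2 difference over 1 left 32, and omission of the 3dpS fed tank 1 fish together with fish 1 of fed tank 2 at 21dpS, chosen after seeing the data, gave 116. The ratio of overlapping pairs as a covariate, also chosen after seeing the data, gave 2. In these alternatives all of the 50 genes that had a value kept their sign. The replicate block called 80 genes between the fed tanks and 18 between the starved tanks, on the libraries with a same-numbered partner. The deviations of same-numbered fed fish correlated at -0.15 (21dpS) and 0.15 (3dpR). With 2 fish per tank, both pairs of a time point gave the same value. These values therefore cannot show whether the numbers carry a shared order or only name fish. Between the starved tanks DESeq2 called 3 genes, no filter 8 and the mean of the within-time-point differences 1. The interaction with time point gave 190 genes without a filter and 32 with at least 10 counts. In the same 2 settings 3dpS gave 85 and 24, and 3dpR 117 and 11 (38 with RLE factors), while 21dpS gave 191 without a filter. The difference between diets gave 60 and 34, and 105 by DESeq2. The share of variance between the fed tanks was 19.6 to 31.5% with 1 library left out, and the difference in library totals -0.127 to -0.0558. The cause of these changes was not tested. Depth limits the comparison to 4362 genes, with a floor of up to 5.816 CPM.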

Other observations

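Other lists held no gene called between the fed tanks over all time points. Within 21dpS the immediate early gene ATF3 was called (log2 difference 1.58, adjusted p = 0.0437, edgeR). Of genes with fasting or glucocorticoid induction, 10 of 11 tested were below 0 in fed tank 2 with a median log2 difference of -0.32, among them PCK1, the rate-limiting enzyme of gluconeogenesis, at 441 CPM against 111 and 101 CPM at 3dpS and at 516 and 630 CPM against 176 and 235 CPM at 21dpS, but at 158 and 322 CPM against 150 and 317 CPM at 3dpR. At 3dpR the median of the list was 0.23, and between the starved tanks it was -0.58 with 7 of 10 genes below 0. The list summed to 1519 to 2383 CPM in fed tank 1 and 989.9 to 1519 CPM in fed tank 2. Of xenobiotic and oxidant response genes 10 of 13 were below 0 (median -0.29), and of heat shock and chaperone genes 5 of 6 (median -0.38). The median was 0.20 for 7 sterol synthesis genes, 0.87 for 3 immediate early genes, 0.07 for the 13 mitochondrially encoded genes, 0.85 for 8 yolk and ovary genes, -0.19 for 4 smooth muscle genes and -0.56 for the 3 of 33 cell cycle genes that had enough reads. The yolk and ovary median changed sign between time points, at -0.57 at 21dpS and 3.10 at 3dpR. This list summed to 712 CPM in fish 3 of fed tank 1 at 21dpS. It summed to 479.3 and 649.5 CPM in fish 3 of fed tank 2 at 21dpS and 3dpR. The other fed fish had 11.42 to 128.6 CPM. The skeletal muscle list had 1 tested gene, atp2a1, at 0.58 (adjusted p = 0.0999, edgeR).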
